A study of Mus musculus with 12 samples.

Results

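Nfe2l2, the gene that encodes the transcription factor Nrf2, and 9 of its target genes were followed in livers and liver tumors of mice that express telomerase from the p21 promoter. The 10 genes were taken by symbol (Nfe2l2, Gclc, Gclm, Gpx2, Gsr, Srxn1, Txnrd1, Nqo1, Cbr3 and Osgin1) from count tables of 24421 gene symbols, and all 10 were found. The study asked how active and catalytically inactive telomerase shape liver tumors of aged mice, and it sequenced polyadenylated RNA from bulk tissue. The libraries used here are those of 6 non-tumoral livers and 6 tumors. The study also describes further p21+/TertCi tumors, other Hras-mutated ones among them, and a wild-type neoplasm. They are not among these libraries. In p21+/Tert mice (labelled p21Tert; 4 livers and 4 tumors) the Cdkn1a promoter, which drives p21, also drives Tert. In p21+/TertCi mice (labelled p21TertCi; 2 livers and 2 tumors) it drives a catalytically inactive TertCi. All animals were aged and fed a standard diet, the transgene also carries mCherry, and both models keep their endogenous Tert gene in the germline. No wild-type library is part of the comparison, so the livers carry the same transgene as the tumors.

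Tumors were also classed by the mutations the study lists. T-HCC662 and T-HCC663 carry an activating Ctnnb1 mutation, T-HCC941 an Egfr mutation, TCi-HCC981 an Hras mutation, and T-HCA992 and TCi-HCA984 none of these. For these last tumors, no listed driver means no mutation in Ctnnb1, Egfr or Hras. The study lists other mutations in them, among them Ppp1r9a and PtprE in T-HCA992 and Ep300 in TCi-HCA984. The classes hold 2 tumors each and are tied to other features. Both Ctnnb1 tumors are p21+/Tert, while the other classes hold 1 tumor of each genotype, and both tumors without a listed driver are adenomas, so driver and histology cannot be told apart there. T-HCC663 is named a carcinoma but is listed as an adenoma in the histology of the study. The livers are named NT plus the number of the mouse. The title of 1 p21+/Tert liver gives an animal number that no tumor carries, and it was taken as the liver of the T-HCC662 mouse (NT662), the number its count table carries.

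Nrf2 is held low in unstressed cells by Keap1, which presents it to a Cullin-3 ubiquitin ligase for degradation. Electrophiles and oxidants modify Keap1, and Nrf2 then accumulates, pairs with a small Maf protein (Maff, Mafg or Mafk) and binds antioxidant response elements near its targets. Regulation is therefore largely at the level of the protein, and the mRNA of Nfe2l2 is only a partial readout. The targets supply glutathione (Gclc and Gclm), use and recycle it (Gpx2 and Gsr), keep the thioredoxin system reduced (Srxn1 and Txnrd1), reduce quinones and carbonyls (Nqo1 and Cbr3) or respond to oxidative stress in other ways (Osgin1). In the liver the pathway is known for the defence against reactive metabolites of drugs and toxins, and its activation is known in a subset of hepatocellular carcinomas.

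The core of the antioxidant response element, TGACNNNGC on either strand, is shown because it is the sequence through which Nrf2 acts on these genes. RefSeq promoter windows on build GRCm38.p6, from 250 bases before to 50 bases after an annotated start, were searched. A match was found in the windows of Nfe2l2, Gclm, Srxn1 and in 1 of 3 windows of Txnrd1, and none in those of Nqo1, Cbr3, Gpx2 and Osgin1, which says only that these letters are not in these windows. Gclc and Gsr have no window in the table. Each match is written 5′ to 3′ on the minus strand of the genome, with the core in capitals and 10 bases on either side.
Nfe2l2: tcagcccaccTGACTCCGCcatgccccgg
Gclm: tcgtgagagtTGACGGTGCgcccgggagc
Srxn1: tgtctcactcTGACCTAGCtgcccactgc
Txnrd1: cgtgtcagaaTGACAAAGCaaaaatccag
The Nfe2l2 match lies at chr2:75704885-75704913, the Gclm match at chr3:122245413-122245441, the Srxn1 match at chr2:152105542-152105570 and the Txnrd1 match at chr10:82859104-82859132. The same letters occur in 12.4% of 32851 promoter windows and for 14.0% of 27025 genes, and a match is a description, not a binding site.

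The libraries held 14571716 to 26170661 reads assigned to genes. Levels are given as CPM, which are reads per 1000000 of a library after scaling by the trimmed mean of M-values. Tert was detected in every library, at 4.64 to 26.2 CPM. Hepatocyte markers were abundant in every library, with a sum over 5 genes of 25078 to 48484 CPM in livers and 14856 to 91082 CPM in tumors. The sum of bile duct markers was 50.4 to 135 CPM in livers. It was above every liver in T-HCA992, T-HCC941 and TCi-HCA984, at 1070, 410 and 287 CPM. In T-HCC662, T-HCC663 and TCi-HCC981 it was 17.6, 37.2 and 60.9 CPM. Of these markers, Krt19, Krt7 and Epcam each stayed at or below 2.95 CPM. Sox9 was higher than in the own liver in each tumor without a Ctnnb1 mutation and lower in both Ctnnb1 tumors. The part of these markers in the levels of the members was not tested. The sum over 6 macrophage markers was highest in both libraries of 1 mouse, at 1261 CPM in NT981 and 875 CPM in TCi-HCC981, against medians of 251 CPM in livers and 138 CPM in tumors. In bulk tissue, fewer cells of a type and less RNA per cell cannot be told apart.

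Across the 6 tumors and 6 livers, the genes that reduce quinones and carbonyls, Nqo1 and Cbr3, and the peroxiredoxin repair enzyme Srxn1 were up-regulated, while Nfe2l2 itself and the subunits of glutathione synthesis did not pass the test. In the edgeR quasi-likelihood test, 3 of the 9 members tested were called higher at an adjusted p under 0.05 and 0 lower, where 10.7% of 13822 genes tested were called, 6.77% higher and 3.91% lower. The members were chosen with earlier results of these data known, so this share and those below describe them and do not test them as a set. Gpx2 reached the level of the filter on counts in 0 of 6 livers and did not pass it in this comparison. It passed in the comparisons by genotype and class only through tumors where it was high. It is therefore left out of counts and medians over 9 members below and described by its reads. Counts over 10 members and medians over 9 targets include it. The median log2 fold change was 0.80 over the 9 members and 0.01 over all genes tested, and 8 of the 9 had a positive value. Compared within each mouse, 3 of the 9 members other than Gpx2 (Nqo1, Cbr3 and Srxn1) were higher in the tumor than in its own liver in 6 of 6 mice, which was so for 11.0% of 13379 genes with a mean of at least 1 CPM.

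**Figure D1:**
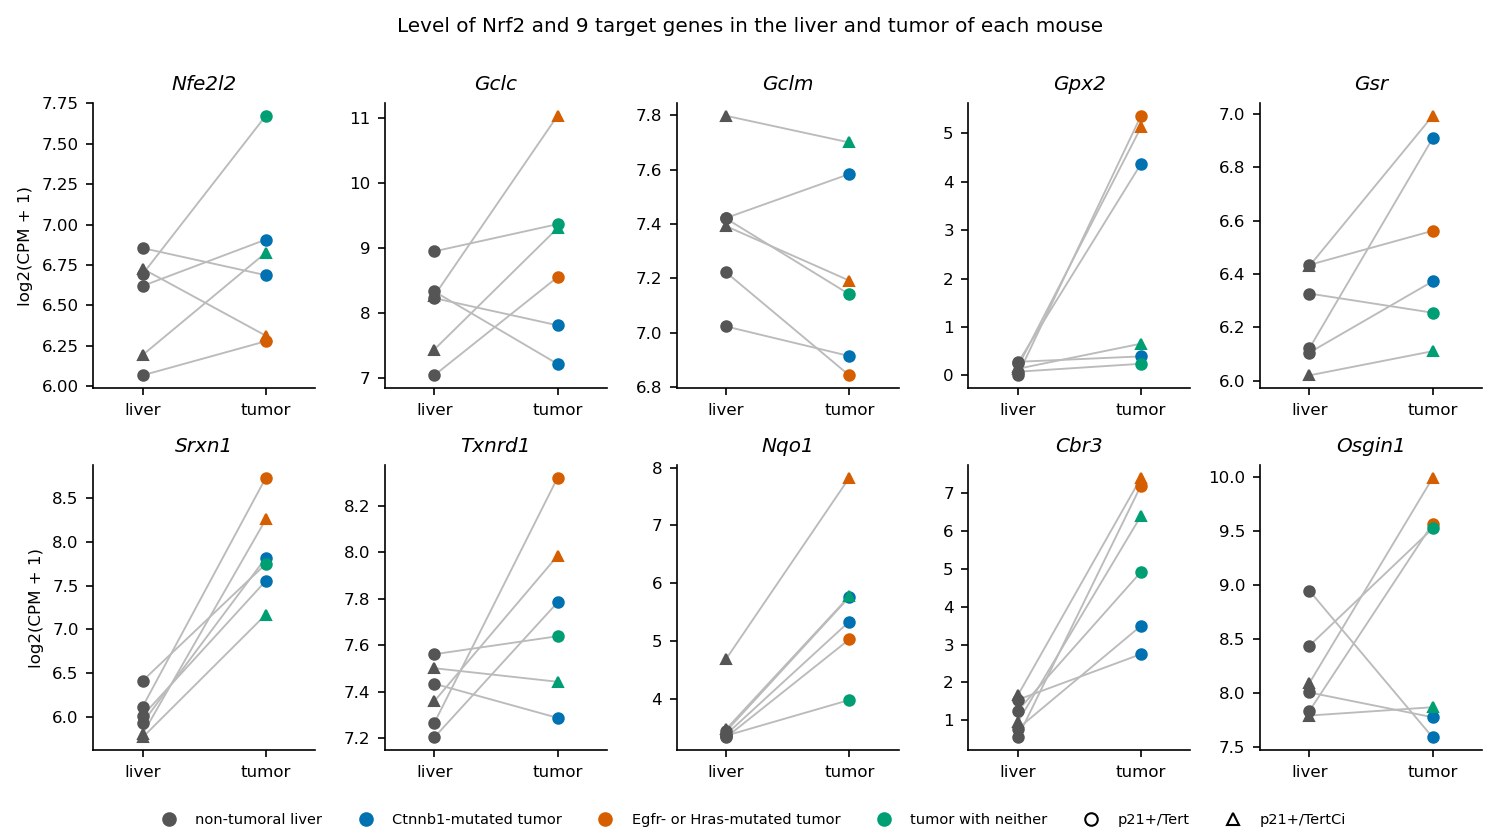
Level of each member on the log2(CPM + 1) scale in the non-tumoral liver and the tumor of the same mouse, joined by a line. Circles are p21+/Tert and triangles p21+/TertCi mice, colors give the class of the tumor, and the y axis differs between panels. The lines for Srxn1, Nqo1 and Cbr3 rise in all 6 mice, while those of Nfe2l2, Gclc, Gclm and Osgin1 run in both directions.

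Nfe2l2 (chr2:75675513-75704641, minus strand), the transcription factor, overlapped between tissues and did not pass the test. In livers it stood at 115 CPM in NT662, 97.4 in NT663, 66.0 in NT941, 102 in NT992, 105 in NT981 and 72.1 in NT984. In tumors it stood at 102 and 119 CPM in the Ctnnb1 tumors T-HCC662 and T-HCC663, 76.6 in T-HCC941, 203 in T-HCA992, 78.5 in TCi-HCC981 and 112 in TCi-HCA984. The groups overlapped, with T-HCA992 above all other libraries and T-HCC941 and TCi-HCC981 as the lowest tumors. The log2 fold change of tumors against livers was 0.31 ± 0.24 (SE, adjusted p = 0.452 with edgeR). Within mice, the difference was positive in 4 and negative in 2.

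Of the genes that set the level and activity of Nrf2, 1 of 13 listed was called higher over all tumors and 0 lower, a share near the 6.77% of all genes called higher. This was Maff, a small Maf partner, with a log2 difference of 2.51 ± 0.56 (SE, adjusted p = 0.0133). By class, Bach2 of this list was called higher in Egfr or Hras than in Ctnnb1 tumors, at 1.99 ± 0.50 (SE, adjusted p = 0.0356). It was also called higher in tumors with no listed driver than in livers, at 1.34 ± 0.37 (SE, adjusted p = 0.0467). Bach1 missed the threshold between the former classes, at 1.24 ± 0.37 (SE, adjusted p = 0.0620). Keap1, the inhibitor of Nrf2, ranged from 51.9 to 112 CPM in livers and from 63.1 to 113 CPM in tumors.

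Gclc and Gclm encode the catalytic and the modifier subunit of glutamate-cysteine ligase, the rate-limiting enzyme of glutathione synthesis, and neither passed the test over all tumors. Gclc (chr9:77754535-77794485, plus strand) stood at 322, 300, 131, 494, 308 and 173 CPM in NT662, NT663, NT941, NT992, NT981 and NT984. In tumors it stood at 148 and 224 CPM in the Ctnnb1 tumors T-HCC662 and T-HCC663, 375 in T-HCC941, 660 in T-HCA992, 2096 in TCi-HCC981 and 632 in TCi-HCA984. The groups overlapped, since both Ctnnb1 tumors lay within the range of the livers, while T-HCA992, TCi-HCC981 and TCi-HCA984 lay above every liver. Gclc had a log2 fold change equal to 1.26 ± 0.57 (SE, adjusted p = 0.181), with a higher value in the tumor in 4 of 6 mice.

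Gclm (chr3:122245557-122270732, plus strand) ranged from 129 to 222 CPM in livers and from 114 to 207 CPM in tumors, a log2 difference of -0.14 ± 0.19 (SE, adjusted p = 0.701). It was lower in the tumor in 5 of 6 mice, by at most 0.38 on the log2(CPM + 1) scale. Its annotated exons share 540 bases with the antisense transcript Gm17494 and the pseudogene Gm6061, so that some of its reads may be ambiguous.

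Gpx2 (chr12:76792333-76795554, minus strand), a glutathione peroxidase best known from the gut epithelium, was almost absent from livers and high in 3 tumors. The livers held 12 reads in all, 0 to 3 in each, with 0 in NT941. The tumors held 7 and 453 reads in the Ctnnb1 tumors T-HCC662 and T-HCC663, 749 in T-HCC941, 5 in T-HCA992, 658 in TCi-HCC981 and 10 in TCi-HCA984. T-HCC663, T-HCC941 and TCi-HCC981 thus stood at 19.6, 40.1 and 33.8 CPM, and the 3 other tumors at 0.573 CPM or below, near the livers, whose highest value was 0.214 CPM in NT662. The near-identical pseudogene Gpx2-ps1 held at most 5 reads in any library.

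Gsr (chr8:33652523-33698163, plus strand), glutathione reductase, which restores reduced glutathione with NADPH, ranged from 63.9 to 85.5 CPM in livers and from 68.1 to 126 CPM in tumors. The highest tumors were TCi-HCC981 and T-HCC663, at 126 and 119 CPM. Tumors against livers gave a log2 fold change equal to 0.33 ± 0.17 (SE, adjusted p = 0.256), with a higher value in the tumor in 5 of 6 mice.

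Srxn1 (chr2:152105516-152111376, plus strand), sulfiredoxin, which repairs overoxidized peroxiredoxins, was higher in each tumor. It stood at 60.3, 63.7, 68.5, 84.3, 54.99 and 53.6 CPM in NT662, NT663, NT941, NT992, NT981 and NT984. In tumors it stood at 224 and 187 CPM in the Ctnnb1 tumors T-HCC662 and T-HCC663, 422 in T-HCC941, 214 in T-HCA992, 304 in TCi-HCC981 and 143 in TCi-HCA984. The lowest tumor lay above the highest liver, NT992, so the groups did not overlap. Tumors exceeded livers in log2 terms by 1.95 ± 0.25 (SE, adjusted p = 0.000956).

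Txnrd1 (chr10:82833951-82897712, plus strand), cytosolic thioredoxin reductase, differed less. It ranged from 146 to 188 CPM in livers and from 155 to 319 CPM in tumors, with T-HCC941 and TCi-HCC981, the Egfr and Hras tumors, highest at 319 and 252 CPM. The log2 fold change over all tumors was 0.39 ± 0.19 (SE, adjusted p = 0.198).

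Nqo1 (chr8:107388225-107403206, minus strand), the quinone reductase most often used as a readout of Nrf2 activity, was higher in the tumor of every mouse. In livers it stood at 9.90 CPM in NT662, 9.49 in NT663, 9.14 in NT941, 9.35 in NT992, 24.9 in NT981 and 10.2 in NT984. In tumors it stood at 53.3 and 39.5 CPM in the Ctnnb1 tumors T-HCC662 and T-HCC663, 31.7 in T-HCC941, 14.9 in T-HCA992, 225 in TCi-HCC981 and 53.8 in TCi-HCA984. Livers were alike except NT981, and 5 of 6 tumors exceeded it, T-HCA992 being the exception. Tumors stood above livers by a log2 fold change equal to 2.52 ± 0.57 (SE, adjusted p = 0.0149). NT981 and TCi-HCC981 were also the highest in macrophage markers. Without both of them the log2 fold change was 2.01 ± 0.30 (SE, adjusted p = 0.00436), and over all 20 alternatives the adjusted p ranged from 8.38e-05 to 0.0401.

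Cbr3 (chr16:93683215-93690990, plus strand), a carbonyl reductase, showed the largest log2 fold change of the 9 members tested. In livers it stood at 0.71 CPM in NT662, 1.91 in NT663, 0.46 in NT941, 1.38 in NT992, 2.15 in NT981 and 0.93 in NT984. In tumors it stood at 10.3 and 5.72 CPM in the Ctnnb1 tumors T-HCC662 and T-HCC663, 146 in T-HCC941, 29.3 in T-HCA992, 169 in TCi-HCC981 and 83.6 in TCi-HCA984. No tumor overlapped the livers, and the Ctnnb1 tumors were the lowest of the tumors. Between tissues the log2 fold change came to 5.84 ± 0.86 (SE, adjusted p = 0.0018).

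Osgin1 (chr8:119434124-119446256, plus strand), an oxidative stress-induced growth inhibitor, ranged from 220 to 492 CPM in livers. It stood at 191 and 218 CPM in the Ctnnb1 tumors T-HCC662 and T-HCC663, 757 in T-HCC941, 735 in T-HCA992, 1016 in TCi-HCC981 and 232 in TCi-HCA984. The 2 Ctnnb1 tumors lay below every liver, and T-HCC941, T-HCA992 and TCi-HCC981 above every liver. The log2 fold change over all tumors was 0.80 ± 0.43 (SE, adjusted p = 0.265).

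**Figure D2:**
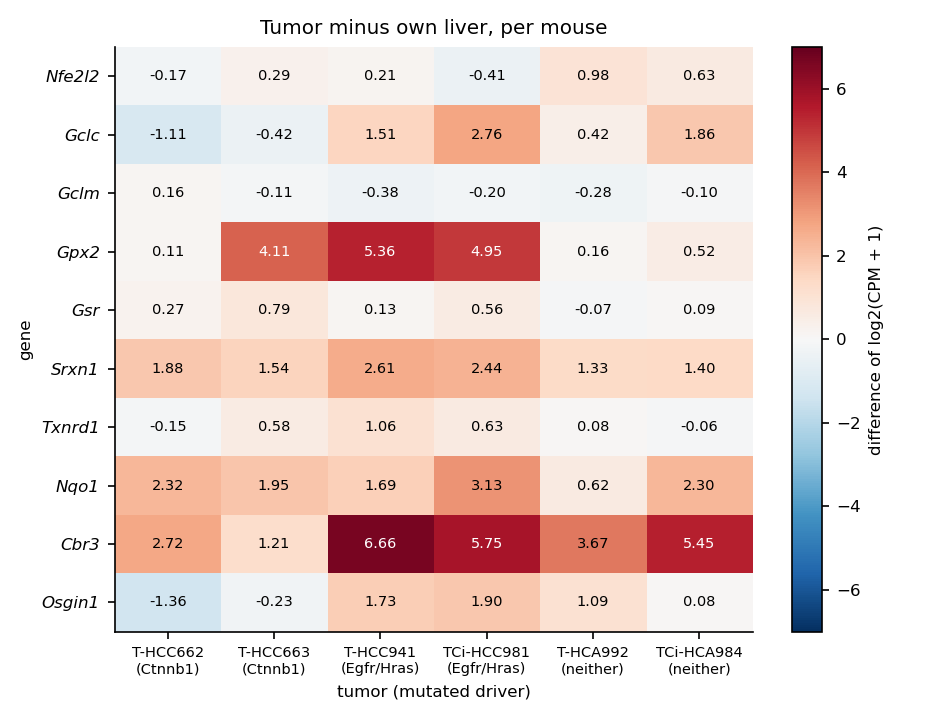
Difference of log2(CPM + 1) between each tumor (columns, with the mutated driver) and the liver of the same mouse for the 10 members (rows), with red for higher and blue for lower in the tumor. Srxn1 rises by 1.33 to 2.61 in every mouse, Gclc and Osgin1 are negative in both Ctnnb1 tumors only, and the largest value is that of Cbr3 in T-HCC941, 6.66.

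The within-mouse differences put sizes on these statements. On the log2(CPM + 1) scale the mean difference was 2.00 ± 0.83 (SD, n = 6) for Nqo1, 4.24 ± 2.07 for Cbr3 and 1.87 ± 0.55 for Srxn1. Each gave p = 0.0312 in a two-sided exact sign-flip permutation test over the 6 mice, which is the smallest p that 6 pairs allow. The pairs include T-HCC662 with NT662, the liver titled with another animal number. For Gpx2, 3 tumors differed from their livers by 4.11 to 5.36, while the other pairs, at 7 against 3, 5 against 1 and 10 against 2 reads, differed by 0.11 to 0.52 and give no direction. For Gsr the mean was 0.29 ± 0.32 (p = 0.0625, the same exact test) and for Gclm -0.15 ± 0.19 (p = 0.125, the same exact test).

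The comparison by genotype asked whether the members changed with active and with inactive telomerase. In p21+/Tert tumors against p21+/Tert livers, 3 of 9 members were called higher and 0 lower, where 6.49% of 15182 genes were called, 4.20% higher and 2.30% lower. These were Srxn1 with a log2 difference of 1.91 ± 0.31 (SE, adjusted p = 0.00789), Cbr3 with 5.38 ± 1.03 (SE, adjusted p = 0.0145) and Nqo1 with 1.87 ± 0.48 (SE, adjusted p = 0.0414). The median was 0.42 over the 9 members and 0.04 over all genes tested. With 4 tumors, Nqo1 and Cbr3 leaned on individual libraries, whereas Srxn1 stayed called without any 1 of the 8. With 1 library left out, Nqo1 stayed called only without T-HCA992, and Cbr3 was lost without NT662. Without NT662, the liver titled with another animal number, only Srxn1 was called.

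In p21+/TertCi tumors against p21+/TertCi livers, 0 of the 10 members and 0% of 15182 genes were called with edgeR, while 5 members and 1618 genes had an unadjusted p under 0.05. The fitted log2 fold changes were 2.98 ± 0.70 for Nqo1, 6.33 ± 1.49 for Cbr3, 2.49 ± 0.82 for Gclc and 2.03 ± 0.44 for Srxn1 (SE, 2 tumors and 2 livers; adjusted p from 0.200 to 0.356). Leaving out 1 of the 4 libraries moved these values to 1.62 to 3.75 for Nqo1, 5.74 to 7.05 for Cbr3, 1.4 to 3.10 for Gclc and 1.39 to 2.46 for Srxn1, each lowest without TCi-HCC981. DESeq2 called these 4 members, among 301 genes higher and 65 lower. The median was 1.33 over the 9 members other than Gpx2 and -0.03 over all genes.

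The difference between the genotypes in this change, tested as an interaction, was called for 0 of 10 members and 0% of 15182 genes, with 1 member and 556 genes at an unadjusted p under 0.05. That member was Gclc, at 2.33 ± 0.96 (SE, adjusted p = 1.00) more log2 change in p21+/TertCi mice, a value of 1.23 to 2.94 over 17 alternatives. DESeq2 called 0 members and 11 genes higher and 3 lower. TertCi livers against Tert livers also gave 0 members and 0% of genes called, with 0 members and 756 genes at an unadjusted p under 0.05, and DESeq2 called 0 members and 16 genes higher and 21 lower. With 2 animals in the smaller group, these counts set no limit on how far the genotypes may differ.

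Each class of tumor was then set against the livers. In Egfr or Hras tumors against the 6 livers, 6 of 9 members were called higher and 0 lower (18.2% of 15182 genes, 9.58% higher and 8.63% lower), with a median log2 fold change of 1.54 over the 9 members and -0.03 over all genes. The carbonyl and quinone reductases rose by 6.91 ± 0.47 for Cbr3 (SE, adjusted p = 1.12e-05) and 3.38 ± 0.59 for Nqo1 (SE, adjusted p = 0.00299). Gpx2 held 749 and 658 reads in these tumors against 12 over all livers. In the thioredoxin arm the values were 2.48 ± 0.22 for Srxn1 (SE, adjusted p = 5.61e-05) and 0.75 ± 0.20 for Txnrd1 (SE, adjusted p = 0.0225).

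Gclc at 2.08 ± 0.53 (SE, adjusted p = 0.0192) and Osgin1 at 1.54 ± 0.39 (SE, adjusted p = 0.0189) completed the 6. Gsr stood at 0.53 ± 0.20 (SE, adjusted p = 0.0824), Gclm at -0.39 ± 0.27 and Nfe2l2 at -0.28 ± 0.27 (adjusted p = 0.333 and 0.493). Much of this rested on TCi-HCC981, the tumor with the highest sum of macrophage markers, whose part in it was not tested. Without that tumor only Cbr3 and Srxn1 of the 9 were called, and without both TCi-HCC981 and NT981 also Nqo1, where Gclc was at 0.38 ± 0.58. Without T-HCC941, Txnrd1 and Osgin1 were lost. With the mouse as a block, Txnrd1 was at 0.83 ± 0.27 (SE, adjusted p = 0.0939, 0.00111 to 0.187 over 14 alternatives).

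In Ctnnb1 tumors against the 6 livers, 2 of 9 members were called higher and 0 lower (8.20% of 15182 genes, 5.00% higher and 3.20% lower), and the median was 0.25 over the 9 members and -0.03 over all genes. Srxn1 rose by 1.67 ± 0.22 (SE, adjusted p = 0.00127) and Cbr3 by 2.63 ± 0.46 (SE, adjusted p = 0.00641). Gpx2 was high in T-HCC663 alone, with 453 reads against 7 in T-HCC662. The call of Cbr3 was lost without T-HCC662. Nqo1 was at 1.93 ± 0.60 (SE, adjusted p = 0.073) and was called without NT981, the liver with the highest Nqo1.

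Gclc at -0.63 ± 0.60 and Osgin1 at -0.57 ± 0.43 (SE, adjusted p = 0.569 and 0.470) had negative values, and Nfe2l2 was at 0.25 ± 0.26 (adjusted p = 0.617). With the mouse as a block, Srxn1 stayed called, Nqo1 passed at 2.24 ± 0.47 (SE, adjusted p = 0.0421), and Cbr3 did not, at 2.56 ± 0.71 (SE, adjusted p = 0.0839). Over 13 alternatives the adjusted p ranged from 0.0253 to 0.291 for Nqo1 and from 2.42e-05 to 0.413 for Cbr3.

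In the 2 tumors with no listed driver, 2 of 9 members were called higher than in livers and 0 lower (8.10% of 15182 genes, 5.67% higher and 2.43% lower), with a median of 0.76 over the 9 members and -0.03 over all genes. Cbr3 rose by 5.44 ± 0.46 (SE, adjusted p = 0.000101) and Srxn1 by 1.46 ± 0.23 (SE, adjusted p = 0.00314), and the call of Srxn1 was lost without T-HCA992. Nqo1 was at 1.49 ± 0.61, Gclc at 1.16 ± 0.54 and Nfe2l2 at 0.76 ± 0.25 (SE, adjusted p = 0.156, 0.209 and 0.0889). These values moved with the tumor kept. Without TCi-HCA984, Nfe2l2 was at 1.12 (adjusted p = 0.0451) and Nqo1 at 0.27 (adjusted p = 0.883), and without T-HCA992 Nfe2l2 was at 0.28 (adjusted p = 0.745) and Nqo1 at 2.14 (adjusted p = 0.207). Over 13 alternatives the adjusted p ranged from 0.0451 to 0.745 for Nfe2l2 and from 0.0717 to 0.883 for Nqo1.

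**Figure D3:**
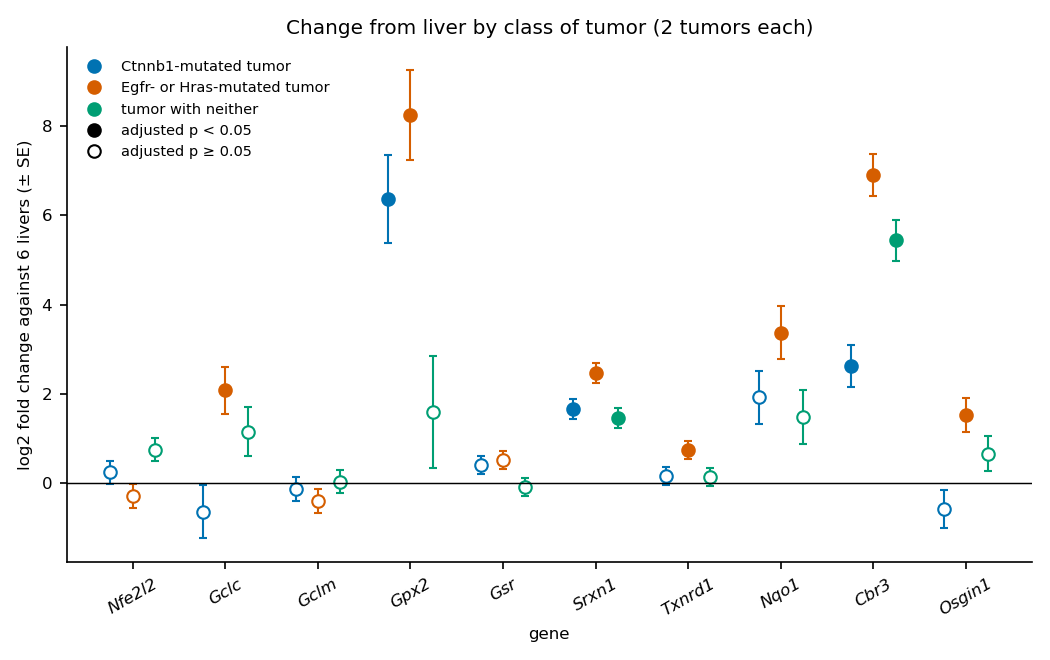
Log2 fold change of each member in the 3 classes of tumor against the 6 livers, with SE from the edgeR fit as error bars and filled points for an adjusted p under 0.05, those of Gpx2 resting on 12 liver reads. The Egfr or Hras tumors stand highest for Gclc, Gpx2, Srxn1, Txnrd1, Nqo1, Cbr3 and Osgin1, and the Ctnnb1 tumors lie below 0 for Gclc and Osgin1.

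The classes were also compared with each other. In Egfr or Hras tumors against Ctnnb1 tumors, 3 of 10 members were called higher and 0 lower (8.07% of 15182 genes, 4.10% higher and 3.97% lower). These were Cbr3 at 4.28 ± 0.65 (SE, adjusted p = 0.00382), Osgin1 at 2.10 ± 0.53 (SE, adjusted p = 0.0357) and Gclc at 2.72 ± 0.75 (SE, adjusted p = 0.0471). Cbr3 was at 146 and 169 CPM in the former class and at 10.3 and 5.72 CPM in the latter, and it stayed called without any 1 of these 4 tumors. Osgin1 was lost without any 1 of them, and Gclc stayed called only without T-HCC941. With the mouse as a block, when the changes from the own liver are compared, 0 of the 3 were called, at 4.41 ± 1.03 for Cbr3, 2.61 ± 0.55 for Osgin1 and 2.90 ± 0.67 for Gclc (SE, adjusted p = 0.0786, 0.0644 and 0.0774). Over 11 alternatives the adjusted p ranged from 1.04e-09 to 0.113 for Cbr3, from 0.00101 to 0.198 for Osgin1 and from 0.00151 to 0.452 for Gclc.

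Against the 4 other tumors together, the Ctnnb1 tumors had 2 of 10 members lower and 0 higher (12.5% of 15182 genes, 5.73% lower and 6.76% higher), Cbr3 at -3.55 ± 0.60 (SE, adjusted p = 0.0051) and Osgin1 at -1.67 ± 0.48 (SE, adjusted p = 0.0423). Cbr3 was lower without any 1 of the 6 tumors, Osgin1 only without TCi-HCA984 or with all 6, and with the mouse as a block neither was called, at -3.63 ± 0.91 and -1.99 ± 0.48 (SE, adjusted p = 0.0829 and 0.0753). Over 12 alternatives the adjusted p ranged from 7.27e-09 to 0.128 for Cbr3 and from 0.00266 to 0.295 for Osgin1. Zonation genes moved with this contrast as well. The sum of 6 pericentral hepatocyte markers was 23697 and 19864 CPM in T-HCC662 and T-HCC663 and 474 to 2548 CPM in the other tumors, against 6276 to 10376 CPM in livers, and its part in the difference of the members was not tested. Egfr or Hras tumors against those with no listed driver gave 0 of 10 members and 0% of 15182 genes called with edgeR, with 7 members and 1331 genes at an unadjusted p under 0.05. Of these 7, Nfe2l2 was lower in Egfr or Hras tumors, at -1.04 ± 0.33 (SE, unadjusted p = 0.00805 with edgeR), and the others were higher. One of them was Gpx2, with 5 and 10 reads in the tumors with no listed driver. DESeq2 called 1 member, Gpx2, among 52 genes higher and 51 lower.

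The mRNA of Nfe2l2 did not order the tumors as its targets did. Set against the liver mean on the log2(CPM + 1) scale, the 9 targets had a median difference of 2.24 in TCi-HCC981, 1.38 in T-HCC941, 0.67 in T-HCC663, 0.50 in TCi-HCA984, 0.37 in T-HCA992 and 0.20 in T-HCC662. The livers lay between -0.17 and 0.13. TCi-HCC981 and T-HCC941, the highest for the targets, were the lowest tumors for Nfe2l2, at 78.5 and 76.6 CPM. T-HCA992 was the highest for Nfe2l2, at 203 CPM. The 9 targets include Gpx2, which held 5 reads in T-HCA992 and 10 in TCi-HCA984. As such near-floor values move these medians, the order of the other tumors for the targets is not read. In TCi-HCC981, 8 of 9 targets exceeded the highest liver, and 7 in T-HCC941, 6 in T-HCC663, 5 in T-HCA992, 5 in TCi-HCA984 and 4 in T-HCC662. Gpx2 is counted among them even at 7 reads in T-HCC662 and 10 in TCi-HCA984. The share of all genes above the highest liver was not counted per tumor, so these counts are not read as particular to the targets. With 6 tumors of 3 classes, this is a description.

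**Figure D4:**
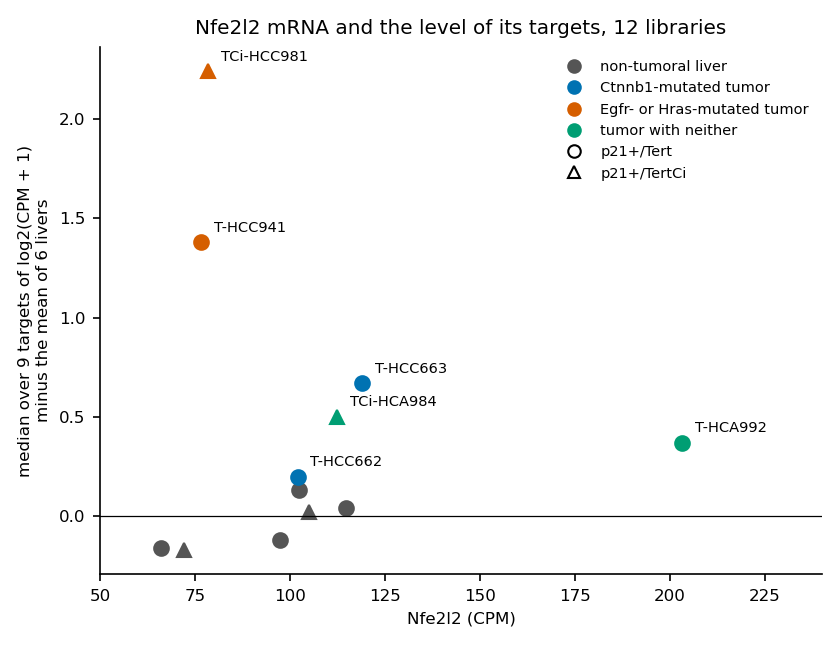
Nfe2l2 in CPM (x axis) against the median difference of the 9 targets from the liver mean on the log2(CPM + 1) scale (y axis) in the 12 libraries, with circles for p21+/Tert and triangles for p21+/TertCi. The 2 Egfr or Hras tumors sit at the top left, at 76.6 and 78.5 CPM with medians of 1.38 and 2.24, and T-HCA992 at the far right, at 203 CPM with a median of 0.37. The 9 targets include Gpx2, which was near the floor in T-HCA992 and TCi-HCA984.

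Levels of different members were compared per kilobase of annotated exon (RPKM). In livers, Osgin1 was highest at 113 ± 38.6 RPKM (SD, n = 6), followed by Gclc at 76.5 ± 34.0, which did not differ beyond this spread. Gsr, Gclm, Nfe2l2, Txnrd1 and Srxn1 followed at 27.3 ± 3.43, 26.7 ± 4.92, 24.5 ± 5.12, 23.6 ± 2.25 and 22.8 ± 4.00 RPKM, and no neighbours among these differed beyond their spread. Nqo1 at 7.82 ± 4.02, Cbr3 at 1.00 ± 0.54 and Gpx2 at 0.035 ± 0.025 RPKM were the lowest. In tumors the medians ran from 181 RPKM for Osgin1 over 134 for Gclc, 77.6 for Srxn1 and 45.0 for Cbr3 to 31.8 for Gsr, 29.9 for Nqo1, 29.5 for Txnrd1, 28.3 for Nfe2l2, 22.7 for Gclm and 3.14 for Gpx2. Srxn1 lay above Gsr in 6 of 6 tumors and Cbr3 in 3 of 6, and Gclc lay above Osgin1 in TCi-HCC981 and TCi-HCA984. The annotated exons of Gpx2 form 1 block over the whole gene, so its value per length is understated.

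Other genes of the pathway were read from lists of Nrf2 targets and neighbours. Their counts are read against the 10.7% of all genes called, 6.77% higher and 3.91% lower. Slc7a11, the cystine importer that feeds glutathione synthesis, held 19 reads over all livers, with 0 in 3 of them, and passed the filter only through the tumors, so it is described and not counted. It stood at 4.85 and 10.6 CPM in the Ctnnb1 tumors T-HCC662 and T-HCC663, 71.0 in T-HCC941, 9.32 in T-HCA992, 131 in TCi-HCC981 and 53.7 in TCi-HCA984, each above every liver. Of the 12 other tested genes of glutathione supply and use, 2 were called higher and 0 lower. The multidrug exporter Abcc4 and the glutathione synthetase Gss rose by 3.71 ± 0.60 and 0.67 ± 0.18 (SE, adjusted p = 0.00274 and 0.0332).

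Of 8 genes listed under NADPH supply, 3 were called higher and 0 lower. They were the pentose phosphate enzymes G6pdx at 2.97 ± 0.72 (SE, adjusted p = 0.0205) and Pgd at 1.15 ± 0.27 (SE, adjusted p = 0.0182), and the mitochondrial folate enzyme Mthfd2 at 2.05 ± 0.40 (SE, adjusted p = 0.00676). Of 13 glutathione S-transferases, 2 were higher, Gsta1 and Gstm3, at 3.72 ± 0.78 and 2.93 ± 0.65 (SE, adjusted p = 0.00999 and 0.013), and 1 was lower, the microsomal Mgst1, at -1.26 ± 0.33 (SE, adjusted p = 0.0279). Near-identical copies in this family make the share of each gene uncertain. Of 13 other detoxification targets tested, 4 were higher and 0 lower, Nupr1, Cbr1, Trim16 and Ptgr1, at 3.66, 1.43, 2.34 and 2.38.

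In the remaining lists, 2 of 21 genes were called, a share near that over all genes. Of 11 genes of the thioredoxin and peroxiredoxin system, 0 were higher and 1 lower, Prdx5, a peroxiredoxin of mitochondria and peroxisomes, at -0.85 ± 0.21 (SE, adjusted p = 0.0207). Of 6 heme and iron targets, among them Hmox1, 0 were called in either direction. Of 4 antioxidant enzymes that are not typical Nrf2 targets, 0 were higher and 1 lower, the mitochondrial superoxide dismutase Sod2, at -1.06 ± 0.18 (SE, adjusted p = 0.00334). Sod2 lay below every liver in all 6 tumors, at 60.2 to 106 CPM against 149 to 223 CPM.

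**Figure D5:**
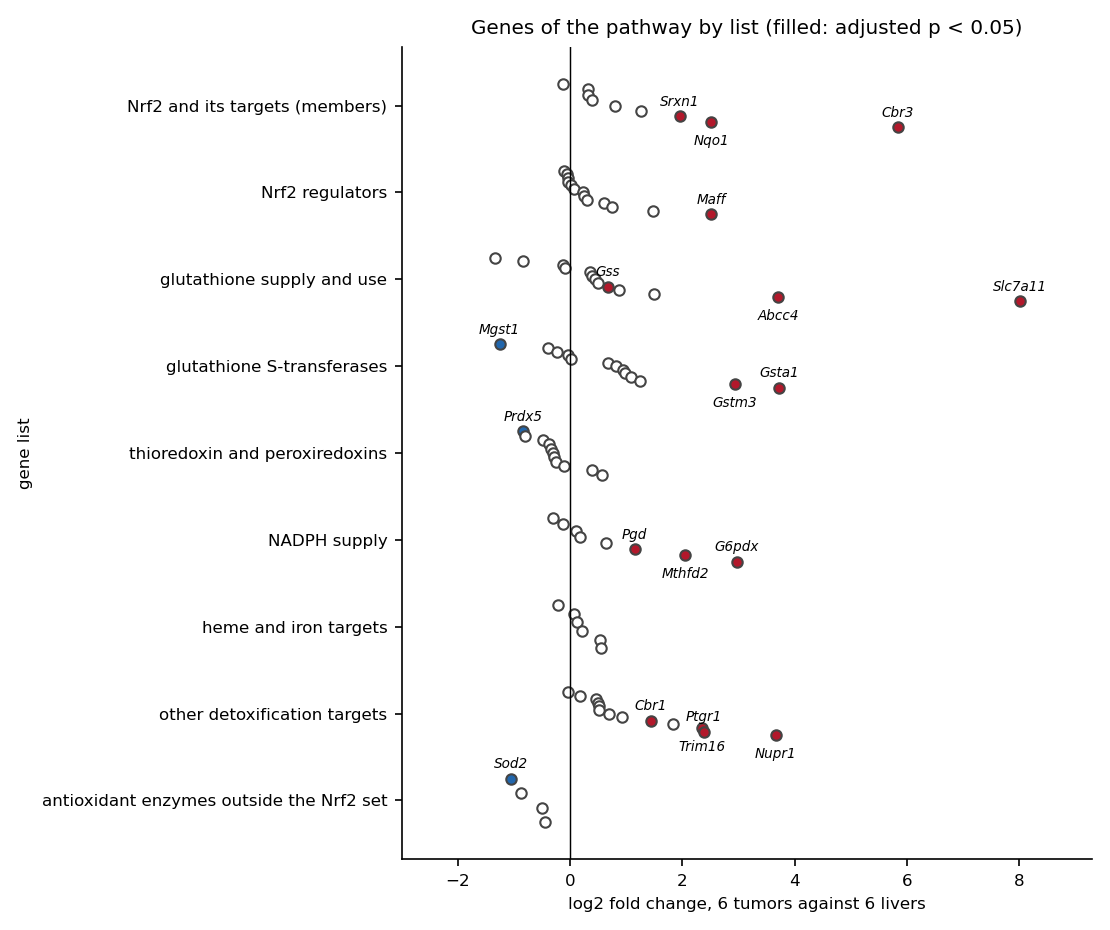
Log2 fold change of 6 tumors against 6 livers for the genes tested in each list, 1 point per gene, filled red for called higher and blue for called lower at an adjusted p under 0.05. Slc7a11, whose fitted value rests on 19 liver reads, and Cbr3 at 5.84 lie farthest to the right, and the 3 genes called lower are Mgst1, Prdx5 and Sod2.

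The lists were also read by class, beside the 9.58% of all genes called higher and 8.63% lower in Egfr or Hras tumors and the 5.00% and 3.20% in Ctnnb1 tumors. Slc7a11 and Ggt1 reached the filter level in 0 livers and are not counted. In Egfr or Hras tumors 1 of the 12 other genes of glutathione supply and use was higher than in livers (Abcc4 4.29 ± 0.63) and 1 was lower (Gpx1 -1.64 ± 0.47). In Ctnnb1 tumors 3 of 12 were higher and 0 lower (Abcc4 3.76 ± 0.63, Gpx4 1.71 ± 0.34 and Gss 0.88 ± 0.23). Slc7a11 was 3.70 ± 0.92 higher in Egfr or Hras than in Ctnnb1 tumors (SE, adjusted p = 0.0346), which was not refitted with the mouse as a block or without single libraries. The direction was that of its companion in glutathione synthesis, Gclc, whose call in this contrast was lost with the block. Gstm2, a cytosolic glutathione S-transferase, was 3.42 ± 0.39 lower in that contrast (SE, adjusted p = 0.000814), opposite to Gclc, with 646 and 377 CPM in the Ctnnb1 tumors and 45.7 and 51.2 CPM in the Egfr and Hras tumors.

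Of 13 glutathione S-transferases, 5 were higher and 1 lower in Egfr or Hras tumors than in livers, and 4 were higher and 0 lower in Ctnnb1 tumors, with no test of the difference between these counts. NADPH supply gave 3 of 8 higher and 0 lower in the former and 2 of 8 higher and 0 lower in the latter. G6pdx, the entry enzyme of the pentose phosphate pathway, was at 3.59 ± 0.65 and 0.51 ± 0.70 (SE, adjusted p = 0.00362 and 0.714). The difference between the classes, 3.08 ± 0.94 (SE, adjusted p = 0.0646), missed the threshold. Idh2 and Me1 of this list were called lower in Egfr or Hras than in Ctnnb1 tumors, at -1.79 ± 0.34 and -2.02 ± 0.54 (SE, adjusted p = 0.0118 and 0.0432). High G6pdx was not particular to Egfr or Hras tumors. In tumors with no listed driver it was 3.27 ± 0.65 above livers (SE, adjusted p = 0.0115), and Egfr or Hras tumors differed from these by 0.32 ± 0.86 (SE, adjusted p = 0.935). Of 13 other detoxification targets tested, 5 were higher and 0 lower both in Egfr or Hras tumors and in Ctnnb1 tumors. Ptgr1, which reduces reactive alkenals and prostaglandins, was at 3.41 ± 0.59 and 0.11 ± 0.66 (SE, adjusted p = 0.00278 and 0.940), and it differed between the classes by 3.29 ± 0.86 (SE, adjusted p = 0.0395).

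The genes most like Nfe2l2 and Nqo1 in pattern were ranked by Pearson correlation of log2(CPM + 1) over the 12 libraries, which share 6 mice and 2 tissues, and are given as a description. Those of Nfe2l2 were Slc22a17, Itgb4, 2700081O15Rik, Slc6a6 and Eln, with r from 0.800 to 0.902, and held no member. Those of Nqo1 were Tor4a, Abcc4, Galnt3, Fam49b and Npb, with r from 0.913 to 0.932, and held 1 gene of the pathway lists, Abcc4.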

How the data were processed

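The authors aligned poly(A) RNA-seq reads to a customized mm10 genome with Subread and deposited raw gene counts from featureCounts 1.6.4, 1 table per library; whether counting used strand is not given in the sources used here. Members, lists and classes were chosen with earlier results of these data known. Counts were tested as deposited with edgeR 4.0.16 (TMM scaling, filterByExpr, quasi-likelihood F test, Benjamini-Hochberg adjusted p under 0.05) in R 4.3.3, adjusted over all genes tested. All tumors were set against all livers in a model of tissue; genotypes and driver classes had models of their own over all 12 libraries. SE is the absolute log2 fold change over the square root of F. RPKM uses exon unions of GENCODE M21 on GRCm38, which also gave the coordinates; near-identical transcripts were sought with minimap2 2.31 (at least 150 bases at 95% identity). Members were named in full, and of other lists at most 4 called genes of smallest p in each direction.

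Livers and tumors carry the numbers of the same animals, which pairs them, except that the title of NT662 gives another number. Deviations of the libraries of a mouse from their group means correlated at r = 0.04 to 0.548 over 13822 genes. The main fits leave the pairing out; fits with the mouse as a block, DESeq2 1.42.0, RLE scaling, a filter of at least 1 count, omitted libraries, carcinomas only and others were alternatives. Omitting NT981 and TCi-HCC981 together was added after the data were seen. The sequencing run, which the authors corrected for, is not given per library and was not fitted. Genes at the filter's level (10 reads in a library of median size) in 0 livers were left out of counts of list genes and, where stated, of members. Tests were tried on simulated data.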

Additional observations from a re-analysis of the deposited data

Results flagged for a closer look

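Nqo1 in the liver NT981 stood at 24.9 CPM, apart from the other 5 livers at 9.14 to 10.2 CPM, with a gap to the nearest liver above the 95% critical value of Dixon's test for 6 samples. It was the only such library in 40 groups of 4 or 6 libraries examined for the 10 members, and chance alone flags about 1 group in 20. NT981 also held the highest sum of macrophage markers of the livers, 1261 CPM, and the highest Hmox1 of the livers, 60.5 CPM, and their part in its Nqo1 level was not tested.

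The level differed between Egfr or Hras tumors and Ctnnb1 tumors for 3 members in the fit without pairing, in which the livers cancel. The log2 difference was 4.28 for Cbr3, 2.72 for Gclc and 2.10 for Osgin1 (edgeR adjusted p = 0.00382, 0.0471 and 0.0357). In the fit with the mouse as a block, which compares the changes from the own liver, 0 of the 3 were called (adjusted p = 0.0786, 0.0774 and 0.0644). Cbr3 and Osgin1 were higher in both tumors of the former class than in both of the latter, and so was Gclc, at 375 and 2096 CPM against 148 and 224 CPM.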

How the results depend on the processing

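Nqo1, Cbr3 and Srxn1 were called in all tumors against livers under each of 20 alternatives, with log2 fold changes of 1.67 to 2.86, 5.19 to 6.09 and 1.74 to 2.14, and 3 members remained called with the mouse as a replicate block. The counts of members here include Gpx2. It passed the main filter only through tumors where it was high, so its calls are not read as support. The number called in all tumors was 3 to 4, the fourth being Gpx2, called by DESeq2, with a filter of at least 1 count, and with the genotype groups averaged. Leaving out 1 library at a time, the number called ranged from 3 to 3 in all tumors, 1 to 4 in p21+/Tert tumors, 0 to 0 in p21+/TertCi tumors, 2 to 4 in Ctnnb1 tumors, 3 to 7 in Egfr or Hras tumors and 1 to 3 in tumors with no listed driver, and from 1 to 2 both in Ctnnb1 against other tumors and in Egfr or Hras against Ctnnb1 tumors. Omitting a library of a class of 2 leaves a lone tumor, assumed to vary like the other groups.

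With the mouse as a block, 0 members were called in Ctnnb1 against other tumors and 0 in Egfr or Hras against Ctnnb1 tumors, and also when T-HCC662 and its liver were left out of that fit. The block without this pair left 0 called in Ctnnb1 tumors, 1 in tumors with no listed driver (Cbr3), 5 in Egfr or Hras tumors (all but Gclc and Txnrd1) and 2 in p21+/Tert tumors (Srxn1 and Gpx2). Apart from these and those given beside the results, the block changed no call of a member. With only the libraries compared, 1 member was called in each of the latter contrasts (Cbr3). Without both TCi-HCC981 and NT981, 4 members were called in Egfr or Hras tumors and 1 in Egfr or Hras against Ctnnb1 tumors. DESeq2 called 4 members in p21+/TertCi tumors and 1 in Egfr or Hras tumors against those with no listed driver. The cause of these changes was not tested. Gpx2 in Ctnnb1 against other tumors was 1.45 ± 0.95 (SE, adjusted p = 0.331), -0.56 under the block, and -3.51 to 2.42 when 1 tumor was left out, the lowest without T-HCC663 (adjusted p = 0.0446, 0.0429 to 0.895 over 12 alternatives).

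Over all members and comparisons, 79 of 1419 refits changed the sign of a value, and in 1 of them, that of Gpx2, either fit was past the threshold. The number of all genes called moved as well. Against 1477 with edgeR it was 2677 with DESeq2, 2202 with the block and 863 to 1988 without 1 library in all tumors. In p21+/Tert tumors it was 986, with 2088 by DESeq2 and 240 to 1192 without 1 library. For Ctnnb1 tumors it was 1245, 2109 by DESeq2, 851 with the block, 29 with the block without T-HCC662 and 410 to 1329 without 1 library. For Egfr or Hras tumors it was 2764, 1801 with the block and 1079 to 3270 without 1 library. For tumors with no listed driver it was 1230, 2174 by DESeq2, 237 with the block and 196 to 1460 without 1 library. Ctnnb1 against other tumors gave 1896, 3081 by DESeq2 and 441 with the block, and Egfr or Hras against Ctnnb1 tumors 1225, 2413 by DESeq2 and 317 with the block. A pseudocount of 0.1 CPM or the mean of the livers as reference turned no mean within-mouse difference of a member, and the former moved that of Gpx2 from 2.54 to 4.16. Depth limits Gpx2 and Cbr3, with 12 and 142 reads over all livers.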
